A study of Mus musculus with 4 samples.

Results

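The 9 genes described here encode proteins that bind calcium or act with the calcium sensor calmodulin: Hpcal1, Pcp4, Scgn, Calm2, Calm3, Calb1, Calb2, Pvalb and Ncald. They were taken from the 27189 gene rows of the series by symbol, and each symbol had 1 row. Hpcal1, Pcp4 and Scgn were chosen by their measured difference in RPKM between the genotypes in these same libraries, so their values are given as a description with no test. The other 6 were not picked for a difference and were tested. The list was fixed with earlier results of these data known, so calls or their absence among the 6 are not an independent check.

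The libraries were poly(A) RNA-seq of spinal cord motor neuron cell bodies cut out by laser capture, and the comparison addresses what mutant SOD1 does to the RNA of these cells before the mice are ill. The 2 wild-type libraries came from wild-type SOD1-YFP mice of strain 592 and the 2 G85R libraries from G85R SOD1-YFP mice of strain 737, with 1 mouse per library. All were 3 months old on a mixed C57BL/6J x SJL/J background, and all carried a genomic fragment of human SOD1 under its own promoter, joined to yellow fluorescent protein, beside the mouse Sod1 gene. The G85R strain carried far more transgene copies, each strain was 1 line, and cells with large aggregates were passed over at capture, so mutation, copy number and line cannot be told apart. The values are RPKM, reads scaled to the length of the transcript and to the mapped reads of the library, which allow levels of different genes to be compared. From 21560318 to 25186594 reads per library were estimated to fall on genes, and 1 read was worth a median of 0.0195 to 0.0226 RPKM. The mouse Sod1 row stood at 96.3, 146, 124 and 150 RPKM and, since the transgene is human, does not check the genotype labels.

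Calcium ions enter a motor neuron through glutamate receptors and voltage-gated channels each time it is excited. Buffers such as calbindin, calretinin and parvalbumin bind the ions in helix-loop-helix modules called EF hands and so limit how far and how long the free concentration rises, while sensors such as calmodulin and the neuronal calcium sensor proteins change shape on binding and then act on enzymes, channels and membranes. Spinal motor neurons are known for low amounts of the buffers calbindin and parvalbumin beside the eye-movement motor neurons, which are spared for longer in motor neuron disease.

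Calm2 and Calm3 encode the same protein from different nucleotides, so inside the coding sequence their reads can only be separated by silent differences. Codons 62 to 71 are shown because no other stretch of 10 codons inside 1 exon differed at more bases. Their peptide is the same in both genes. The stretches were read on the coding strand from exon 4 of each gene in build NCBIM37, at chr17:87835016-87835045 on the minus strand for Calm2 and at chr7:17502807-17502836 on the minus strand for Calm3. Capitals mark the 8 columns that differ, 7 of them at the third base of a codon.
Calm2: ggCacAattgaTttcccTgaAttTCtgacA
Calm3: ggGacCattgaCttcccAgaGttCTtgacC
Over the whole coding sequence of 450 bases with the stop codon, Calm2 and Calm3 differed at 78 bases, of which 74 were at the third base of a codon, and none of the 149 residues differed. The longest run shared by the whole transcripts, untranslated parts included, was 17 bases, shorter than the 75-base reads. Elsewhere in the genome, however, 14.1% of all 75-base windows of the Calm2 transcript (159 of 1131) and 1.81% of those of Calm3 (40 of 2216) had an exact copy. The level of Calm2 is therefore uncertain, because it depends on how reads with more than 1 place in the genome were counted.

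Hpcal1 and Ncald are members of 1 protein family, and the next pair of stretches, codons 35 to 44, shows where their reads part. They lie at chr12:17793079-17793108 on the plus strand in exon 2 of Hpcal1 and at chr15:37327058-37327087 on the minus strand in exon 5 of Ncald, and capitals mark the 12 differing columns, 7 of them at the third base of a codon.
Hpcal1: CtCaAGgactgccccaCTggCcaCCtGAcT
Ncald: TtGaGAgactgccccaGCggAcaTTtATcA
In full, the coding sequences differed at 115 of 582 bases and at 20 of 193 residues, and the longest run shared by the whole transcripts was 18 bases. Hpca, another relative, shared 93.8% of residues and a run of 38 bases with Hpcal1. In the Hpcal1 transcript 2.29% of 75-base windows (34 of 1487) had a copy elsewhere, and in Pcp4, Scgn, Calb1, Calb2, Pvalb and Ncald 0 did. By exact copies, 75-base reads of these genes can therefore be told apart almost everywhere. Copies with mismatches were not searched for.

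The 9 genes differed widely in level. By mean RPKM over the 4 libraries the order was Calm3 at 813, Calb2 at 524, Calm2 at 313, Pcp4 at 215, Pvalb at 148, Hpcal1 at 139, Ncald at 13.6, Calb1 at 4.62 and Scgn at 1.09. By this mean Calm3 held rank 46 and Scgn rank 11368 of the 27189 rows. Neighbours in this order overlapped between libraries for Calm2 and Pcp4, Pcp4 and Pvalb, and Pvalb and Hpcal1. The other neighbours did not overlap, and Hpcal1 stood 10.2-fold above Ncald by mean level.

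**Figure D1:**
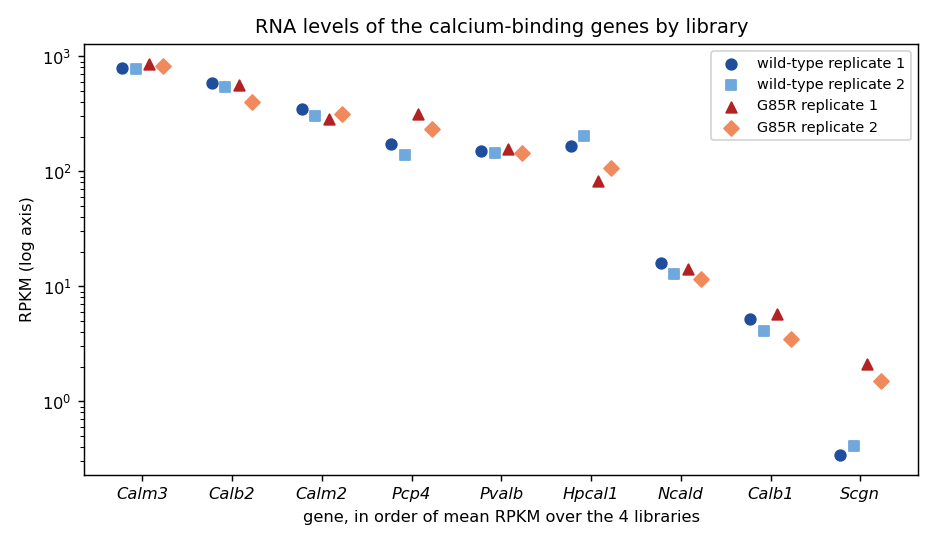
RPKM of the 9 genes on a log10 axis, with 1 point per library. Scgn lies lowest, between 0.339 and 2.12 RPKM, and Calm3 highest, between 775 and 864 RPKM, while the genotypes stand apart for Hpcal1, Pcp4, Scgn and Calm3.

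Hpcal1 encodes a neuronal calcium sensor of the visinin-like group, which moves to membranes when it binds calcium. The gene (Entrez 53602) lies on chromosome 12 from 17697620 to 17798732 on the plus strand of NCBIM37, and its transcript has 4 exons and 1561 bases, 579 of them coding. Its level was 165 and 203 RPKM in the wild-type libraries and 82.8 and 106 RPKM in the G85R libraries. Both G85R libraries were lower than both wild-type libraries, and the lower wild-type value was 1.56-fold the higher G85R value. Replicates of a genotype differed by 1.23-fold and 1.28-fold. Since the gene was chosen for this difference, the gap is a description only. The means were 184 ± 26.9 and 94.4 ± 16.5 RPKM (SD, n = 2 each), 1.95-fold lower in G85R. The values rested on about 5273, 6895, 2414 and 3286 reads in that order of libraries. In RNA from captured groups of cells, fewer cells of a type and less RNA per cell cannot be told apart.

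Pcp4 encodes PEP-19, a small protein that binds calmodulin through its IQ motif and speeds the exchange of calcium on it. It has Entrez number 18546 and lies on chromosome 16 from 96689213 to 96747400 on the plus strand, with 3 exons and a coding sequence of only 186 of 641 bases. Its level was 174 and 140 RPKM in wild-type and 315 and 232 RPKM in G85R. Both G85R libraries were higher, the gap between the groups was 1.33-fold, and replicates of a genotype differed by 1.24-fold and 1.36-fold, so the gap was about as wide as the spread within a group. By means of 157 ± 24.1 and 273 ± 59.1 RPKM (SD, n = 2 each) the G85R level was 1.75-fold higher. Without G85R replicate 1 the difference was 0.57 in log2 RPKM, against 0.79 with it.

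Scgn encodes secretagogin, an EF-hand calcium sensor best known from endocrine cells. It has Entrez number 214189 and lies on chromosome 13 from 24045325 to 24083083 on the minus strand, with 11 exons. Its level was 0.339 and 0.411 RPKM in wild-type and 2.12 and 1.5 RPKM in G85R, from about 14, 18, 80 and 60 reads. Both G85R libraries were higher, by at least 3.65-fold between the nearest libraries, and the means of 0.375 ± 0.0504 and 1.81 ± 0.441 RPKM (SD, n = 2 each) differed 4.83-fold. The wild-type values were under 1 RPKM, so the gene reached the minimum mean of 1 RPKM for testing only through the G85R libraries. The log2 difference was 1.99 with 0.1 RPKM added to each value and 1.02 with 1 RPKM added. Even in G85R the level was below that of the other 8 genes, and the next one up, Calb1, was 3.49 RPKM in its lowest library.

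**Figure D2:**
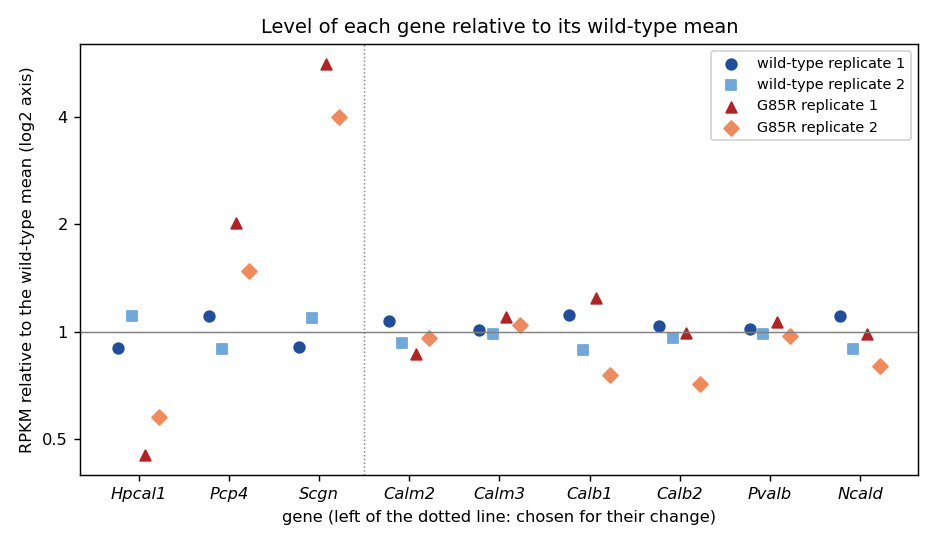
RPKM of the 9 genes relative to the wild-type mean of each gene (log2 axis), with 1 point per library. Hpcal1 lies at 0.449 and 0.576 in G85R, Pcp4 at 2.01 and 1.48, and Scgn at 5.66 and 4.0, while the libraries of the other 6 genes lie between 0.714 and 1.24.

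Among the 6 genes not chosen for a difference, 0 were called by limma at a Benjamini-Hochberg adjusted p under 0.05, where 0.642% of the 11530 tested rows were called, 0.269% higher and 0.373% lower in G85R. At an unadjusted p under 0.05 limma also gave 0 of 6, beside 11.0% of all rows. The log-linear Poisson test treated RPKM values as counts, so its p-values are not those of a test on read numbers. It gave 0 of 6 after adjustment, beside 0.538% of the 11530 rows. Without adjustment it gave 2 of 6, Calm3 and Calb2, beside 2.95%. The groups did not overlap for 1 of the 6, Calm3, against 41.2% of all tested rows. With 2 animals per genotype such misses do not show that the levels were alike, and the 95% interval of each difference is given with it. None of the 6 intervals reached a 2-fold difference, on the assumption limma makes that genes of like level have a like spread.

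Calm2 and Calm3 each encode the whole of calmodulin, the general calcium sensor that activates kinases, calcineurin and many channels. Calm3, on chromosome 7 from 17500728 to 17509463 on the minus strand, stood at 795 and 775 RPKM in wild-type and at 864 and 819 RPKM in G85R. Both G85R libraries were above both wild-type libraries, but the nearest values differed only 1.03-fold. The difference was 0.10 in log2 RPKM (SE 0.09, 95% interval -0.11 to 0.31), with a limma adjusted p of 0.769. Calm2, on chromosome 17 from 87832752 to 87846275 on the minus strand, stood at 351 and 304 RPKM in wild-type and at 284 and 313 RPKM in G85R. The groups overlapped, and the difference was -0.13 (SE 0.11, 95% interval -0.39 to 0.13, limma adjusted p 0.751).

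The classic buffers differed widely in level but not detectably between the genotypes. Calb2, which encodes calretinin and lies on chromosome 8 from 112661402 to 112692110 on the minus strand, was the most abundant, at 588 and 544 RPKM in wild-type and 560 and 404 RPKM in G85R. G85R replicate 2 was the lowest, G85R replicate 1 lay between the wild-type libraries, and the difference was -0.25 (SE 0.16, 95% interval -0.62 to 0.12, limma adjusted p 0.645). Without G85R replicate 2 it was -0.01, so the difference rested on that library.

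Pvalb encodes parvalbumin, a buffer of fast-firing neurons and fast muscle fibres, and lies on chromosome 15 from 78021544 to 78036830 on the minus strand. Its 4 values of 149, 145, 156 and 143 RPKM were the closest to each other of the 9 genes in relation to their mean, and the G85R pair lay on both sides of the wild-type pair. The difference was 0.02 in log2 RPKM (SE 0.10, 95% interval -0.21 to 0.25, limma adjusted p 0.966). Calb1, which encodes calbindin, lies on chromosome 4 from 15808411 to 15835211 on the plus strand, the chromosome on which the G85R transgene is inserted. It stood at 5.14 and 4.11 RPKM in wild-type and at 5.73 and 3.49 RPKM in G85R, from 284 to 439 reads. The highest and the lowest value were both in G85R, and the difference was -0.04 with the widest interval of the 6 genes, -0.62 to 0.55 (SE 0.25, limma adjusted p 0.978). Its sign turned in 3 of the alternative settings.

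Ncald encodes neurocalcin delta, a sensor of the same family as Hpcal1, and lies on chromosome 15 from 37295930 to 37722325 on the minus strand. Its level was 15.9 and 12.8 RPKM in wild-type and 14.1 and 11.5 RPKM in G85R. The groups overlapped, and the difference was -0.16 (SE 0.16, 95% interval -0.54 to 0.21, limma adjusted p 0.798). Over the same libraries Hpcal1 differed by -0.97 in log2 RPKM.

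The wider calcium gene set was 12 lists with 119 genes, of which 118 had a row and 85 reached the minimum level. Apart from Hpcal1, Pcp4 and Scgn, 82 were tested and limma called 0 at an adjusted p under 0.05, where 0.642% of all rows were called. At an unadjusted p under 0.05 there were 17 of 82 (20.7%), beside 11.0% of all tested rows. The Poisson test called none of the 82 after adjustment. The genotypes did not overlap for 37 of the 82 (45.1%), 19 higher and 18 lower in G85R, beside 41.2% of all rows. The median difference of the 82 was -0.02 in log2 RPKM, and that of all tested rows was -0.02.

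In the neuronal calcium sensor family, which holds Hpcal1 and Ncald, 9 of 13 genes were tested, Hpcal1 among them. Of the other 8, the groups stood apart for 3, beside 41.2% of all tested rows, with 2 lower and 1 higher in G85R. Vsnl1, a visinin-like sensor and the most abundant member, stood at 470 and 402 RPKM in wild-type and 470 and 363 RPKM in G85R (log2 difference -0.07, limma adjusted p 0.928). Ncs1, the sensor that gives the family its name, stood at 76.9 and 77.0 RPKM in wild-type and 85.3 and 80.6 RPKM in G85R (0.11, adjusted p 0.770). Hpcal4 had the largest positive difference of the family at 0.16. Hpca, which encodes hippocalcin and is closer to Hpcal1 in sequence than Ncald is, had 7.47 and 7.63 RPKM in wild-type and 5.6 and 4.92 RPKM in G85R. Both G85R values of Hpca were lower, with a difference of -0.52 (SE 0.13, limma adjusted p 0.199).

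Pcp4 belongs to the small proteins that bind calmodulin through an IQ motif or a MARCKS domain, of which 5 of 6 were tested. Its paralog Pcp4l1 stood at 457 and 339 RPKM in wild-type and at 469 and 357 RPKM in G85R. These groups overlapped, with a log2 difference of 0.06 (limma adjusted p 0.953), beside 0.79 for Pcp4. The other named genes of the list, Gap43, which is a growth cone protein, and Marcksl1, differed by 0.11 and -0.04.

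Scgn is counted with the EF-hand buffers, of which 4 of 6 were tested, and the others tested were Calb1, Calb2 and Pvalb, whose groups overlapped. S100g and Ocm, the remaining buffers, did not reach the minimum level. Among the calmodulin-like CaBP proteins 3 of 6 were tested. Cabp1, which regulates calcium channels, stood at 219 and 205 RPKM in wild-type and at 231 and 197 RPKM in G85R, with a log2 difference of 0.01. Cabp7 differed by 0.20 and Caln1, a calneuron, by -0.24.

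The targets that calmodulin acts on were covered by the kinases and calcineurin. Of 13 tested calmodulin-dependent kinases and their inhibitors, 8 were lower in both G85R libraries and 0 were higher, beside 23.9% and 17.3% of all rows, and their median difference was -0.25. None was called. The lowest was Camk1g, with 18.5 and 19.9 RPKM in wild-type and 15.1 and 9.98 RPKM in G85R (log2 difference -0.64, limma adjusted p 0.291). Camk2g differed by -0.18 and Camk2n2, which encodes an inhibitor, by 0.05. The 9 tested calcineurin genes had a median of 0.04, with 2 higher and 0 lower in both G85R libraries against the same shares of all rows. Ppp3r1, the regulatory subunit, differed by 0.02 and Ppp3ca, a catalytic subunit, by -0.28. Rcan3, a regulator of calcineurin, had the largest positive difference at 0.19.

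In the remaining lists the copines, proteins that go to membranes on binding calcium, had 5 of 6 tested genes lower in both G85R libraries, 0 higher and a median of -0.42, beside 23.9% of all rows lower and 17.3% higher. Cpne8 had the lowest value, from 11.0 and 10.2 RPKM in wild-type to 2.24 and 6.42 RPKM in G85R (-1.45, limma adjusted p 0.259). Cpne6, the most abundant copine, overlapped at 230, 275, 210 and 274 RPKM. Of the S100 proteins 4 of 7 were higher in both G85R libraries and 0 lower, against the same shares of all rows, with a median of 0.18. Among these 4, S100a4 stood at 0.897 and 0.844 RPKM in wild-type and at 2.19 and 1.28 RPKM in G85R. It reached the minimum mean only through the G85R libraries, so its direction is no result. S100b, best known from glia, stood at 412 and 414 RPKM in wild-type and at 498 and 483 RPKM in G85R (0.25, adjusted p 0.370). S100a6 went from 1.05 and 1.07 RPKM to 2.60 and 1.81 RPKM (0.97, adjusted p 0.183). S100a10, a partner of annexin, differed by 0.18 and S100a13 by -0.03.

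The annexins, which bind membrane lipids in the presence of calcium, had 2 of 6 tested genes higher in both G85R libraries, 0 lower and a median of 0.05, beside 17.3% of all rows higher and 23.9% lower. Anxa6 differed by 0.05 and Anxa2 by 0.04, while Anxa7 at 0.25 and Anxa11 at -0.33 were the highest and the lowest. Calcium-binding proteins of the secretory pathway had a median of -0.04 over 9 tested genes. Among them the chaperones Calr and Canx, which hold and use calcium in the endoplasmic reticulum, differed by -0.09 and -0.04, Rcn2 by 0.16 and Clgn by -0.29. Other EF-hand proteins had 5 of 11 tested genes higher and 1 lower in both G85R libraries, against the same shares of all rows, with a median of 0.10. In that list Capns1, the small subunit of the protease calpain, differed by 0.10, Tesc by -0.18 and Necab2 by 0.31. None of these genes was called by limma.

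**Figure D3:**
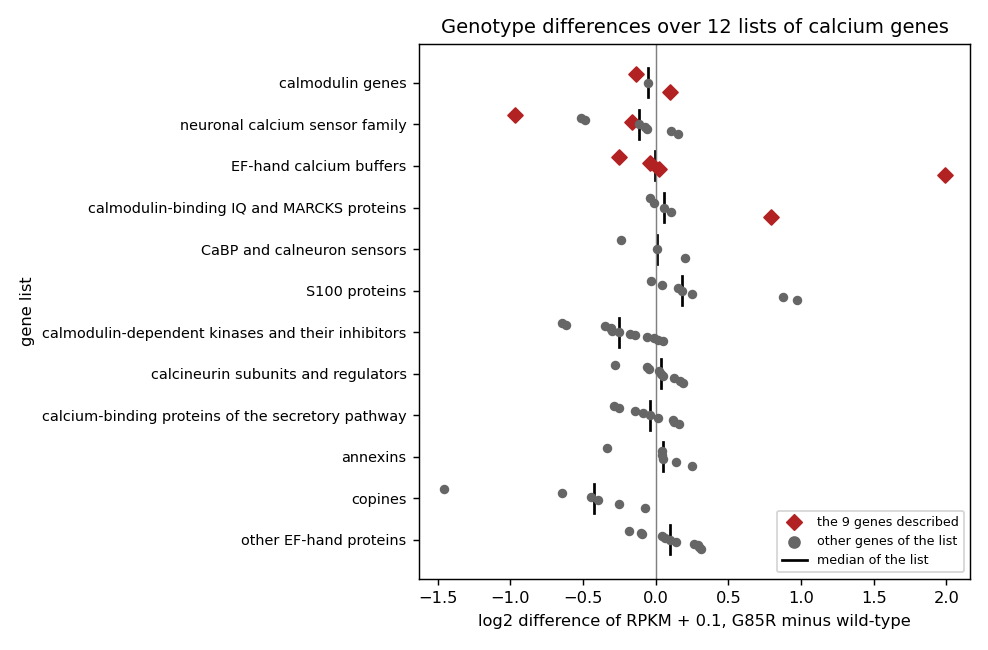
Log2 difference of RPKM, G85R minus wild-type, for the tested genes of the 12 calcium gene lists, with 1 point per gene, a bar at each list's median and the 9 genes marked. Copines have the lowest median at -0.42 and CaM kinases the next at -0.25, and Scgn at 1.99 is the highest point.

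The genes whose pattern over the 4 libraries came closest to Hpcal1 were Pdzrn4, Wdfy1 and Arhgap9, with a root mean square difference of 0.05 in log2 units each. For Pcp4 they were the transcripts named AK005838, AK009175 and AK209590, with 0.04, 0.07 and 0.08. For Scgn they were 1110036O03Rik, Trip10 and Mrps10, with 0.13, 0.18 and 0.18. Likeness over 4 libraries is a description only, since many genes can share a pattern that short.

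Markers of cell types show what else the captured tissue held. All 8 markers of cholinergic motor neurons were present, and their summed level was 2764 and 3069 RPKM in wild-type and 2494 and 2888 RPKM in G85R. Of the 8, 3 were lower in both G85R libraries and 0 were higher, beside 23.9% and 17.3% of all tested rows. Chat, among these 3, stood at 66.3 and 81.2 RPKM in wild-type and at 49.6 and 65.5 RPKM in G85R (limma adjusted p 0.482). Of 12 markers of inhibitory interneurons 9 were at or above 1 RPKM, and the 12 summed to 165 and 177 RPKM in wild-type and 190 and 196 RPKM in G85R. In G85R replicate 2 Npy alone made up 19.7 RPKM of the sum. It stood at 1.38 and 1.12 RPKM in wild-type and at 2.95 RPKM in G85R replicate 1. Calb1, Calb2 and Pvalb are also known from spinal interneurons, whose part in the levels was not tested. Excitatory interneuron markers, of which 3 of 10 were at or above 1 RPKM, summed to 45.5 and 39.6 RPKM in wild-type and 55.9 and 48.1 RPKM in G85R.

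G85R replicate 1, which had the highest Pcp4 and Scgn and the lowest Hpcal1, also held the most glial RNA. The 8 astrocyte markers were all highest there and summed to 47.6, 54.4, 146 and 65.2 RPKM in the 4 libraries, with Gfap at 11.5, 17.1, 91.9 and 28.4 RPKM. The 10 microglial markers, too, were all highest there and summed to 21.2, 22.7, 54.8 and 25.8 RPKM. In G85R replicate 2, where the astrocyte and microglial sums were 1.28-fold and 1.18-fold the wild-type mean, Hpcal1 stood at 0.576 of its wild-type mean, Pcp4 at 1.48 and Scgn at 4.0. Oligodendrocyte markers summed to 905, 854, 1080 and 832 RPKM and endothelial ones to 11.5, 11.6, 10.2 and 9.70 RPKM. The 3 red blood cell markers with a row summed to 1.82 and 2.10 RPKM in wild-type and 11.5 and 10.8 RPKM in G85R. Scgn and Pcp4 were likewise higher in both G85R libraries, as were 17.3% of all tested rows. Nearly all of the red blood cell sum was Hbb-b1, at 1.75 and 2.00 RPKM in wild-type and 10.7 and 10.2 RPKM in G85R. It was the only 1 of the 3 with a mean of at least 1 RPKM. The part of blood and glia in the values of Hpcal1, Pcp4 and Scgn was not tested.

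**Figure D4:**
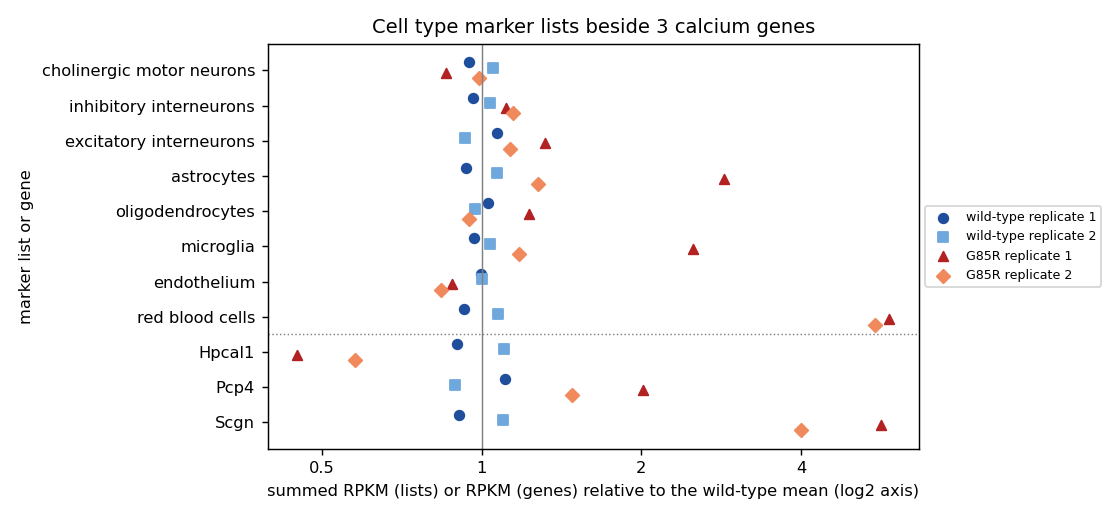
Summed RPKM of 8 cell type marker lists and RPKM of Hpcal1, Pcp4 and Scgn, each relative to its wild-type mean (log2 axis), with 1 point per library. Astrocytes and microglia stand at 2.87 and 2.5 in G85R replicate 1 against 1.28 and 1.18 in G85R replicate 2, and red blood cell markers at 5.87 and 5.51.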

How the data were processed

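RPKM per gene were deposited by the authors for 4 libraries, from 75-base reads aligned with Bowtie 0.12.3 to UCSC mm9, which is NCBIM37. A second deposited column, RPKM with 1 read added, gave the RPKM of 1 read and estimated read numbers. How reads with several places were shared is not given in the sources used here. The 9 genes and the lists were chosen with earlier results of these data known.

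Rows with a mean of at least 1 RPKM (11530 of 27189) were compared as log2(RPKM + 0.1) with limma 3.58.1 in R 4.3.3, with an intensity trend and no covariate, two-sided, with Benjamini-Hochberg adjustment over all tested rows and a threshold of 0.05. A log2 difference is on this scale and understates changes of low genes. Estimated reads are not independent molecules, and the precision is limited by 2 animals per genotype. The code was tested on simulated data. Gene positions and sequences came from the NCBIM37 genome with GENCODE gene models.

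Genes named beside the 9 were, in each list, the 2 with the highest mean, those with the largest increase and decrease, and any called. For Hpcal1, Pcp4 and Scgn the 3 nearest in pattern were added. S100a4 was named for its wild-type level below the minimum. The alternatives were other pseudocounts, minimums, scalings, a replicate block, other limma settings, a Poisson test, and leaving out each library. A planned comparison of shares of RNA is not reported here.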

Additional observations from a re-analysis of the deposited data

How the results depend on the processing

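The 6 genes not chosen for a difference gave 0 calls in all 15 alternatives, and the median of the calcium lists stayed between -0.06 and 0.03 in log2 RPKM. Over all rows, 74 calls became 17 with a minimum of 5 RPKM, 112 with no minimum, 40 with quantile scaling and 49 without the trend, and ranged from 78 to 188 when 1 library was left out, 188 without G85R replicate 2. Apart from Hpcal1, Pcp4 and Scgn, whose calls restate how they were chosen, the calcium genes had 0 calls, except S100a8 with no minimum, Camk1g without G85R replicate 1, Cpne8 without G85R replicate 2 and, with the replicate number as a block, Camk1g, Cpne8, Cpne9, Kcnip1 and S100a6, all named after their values were seen. Over all rows the block gave 527 calls. S100a8 lay far under the minimum mean of 1 RPKM, with G85R values of only 0.0955 and 0.0899 RPKM and wild-type values of 0. Its call with no minimum is therefore no result. With the 3 chosen genes counted in, as a description only, the calcium count was 1, and it was 0 with a minimum of 5 RPKM, where Scgn and Calb1 were not tested, 0 with quantile scaling, 2 with robust fitting, 2 with the Poisson test, 8 with the replicate block, and 1 to 4 when 1 library was left out, 4 without G85R replicate 2. Deviations of same-numbered libraries correlated at r = 0.22, and no source says what the numbers share. Calb1 turned to 0.0060 with quantile scaling and ranged from -0.39 to 0.31 with 1 library left out, 0.12 without wild-type replicate 1 and 0.31 without G85R replicate 2. Pvalb turned to -0.014 with quantile scaling and ranged from -0.038, without G85R replicate 1, to 0.086 with 1 library left out. Scgn moved to 1.02 with a pseudocount of 1. Hpcal1 ranged from -1.15 to -0.79 and Pcp4 from 0.57 to 1.02. The causes were not tested.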
